A study of Homo sapiens with 8 samples.

Results

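Transcripts of 10 human genes that carry interferon signals from the cell surface, or limit them, were measured in tumours with and without the chromatin remodeller SMARCA4. The genes are the interferon receptor chains IFNAR1, IFNAR2, IFNGR1 and IFNGR2, the kinases JAK1, JAK2 and TYK2, the transcription factor STAT3, and the inhibitors SOCS1 and SOCS3. They were chosen by name, and all 10 were found among the 59050 gene symbols of the count files. All 10 passed the filter on low counts, which left 16219 genes for testing. The tumours were grown as xenografts from H2122, a human lung cancer line in long use. There were 4 tumours of the parental line, whose genotype is labelled WT, and 4 of H2122 cells labelled SMARCA4 KO. All 8 came from animals given vehicle. Host strain, tumour age and whether the knockout line is 1 clone are not given in the sources used here. The labels do not say that each tumour came from its own animal, so p-values measure only the spread between these samples.

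Type I interferons bind a receptor made of IFNAR1 and IFNAR2, which carry the kinases TYK2 and JAK1. Interferon gamma binds IFNGR1, which carries JAK1, and the complex is completed by IFNGR2, which carries JAK2. The kinases phosphorylate STAT proteins, which move to the nucleus and switch on target genes. SOCS1 and SOCS3 are among those targets and shut the kinases off, so the pathway limits itself. STAT3 is used above all by the receptors of the interleukin-6 family, and SOCS3 is its classical feedback target. In tumour cells the interferon gamma branch controls antigen presentation and chemokines that draw lymphocytes.

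Promoter sequence was taken from RefSeq on GRCh38.p14, where 9 of the 10 genes were matched and the 250 bases before the annotated start were read. Windows for 4 of these genes (IFNGR1, IFNGR2, TYK2 and STAT3) overlapped exons of GENCODE 29 and are not printed. The windows of SOCS1 and SOCS3 are shown because these inhibitors are the genes of the set that the pathway itself switches on. Each is given 5′ to 3′ on the gene's minus strand, and capitals mark the core of the interferon-stimulated response element, searched as GAAANNGAAA on both strands.
SOCS1 (chr16:11256205-11256454): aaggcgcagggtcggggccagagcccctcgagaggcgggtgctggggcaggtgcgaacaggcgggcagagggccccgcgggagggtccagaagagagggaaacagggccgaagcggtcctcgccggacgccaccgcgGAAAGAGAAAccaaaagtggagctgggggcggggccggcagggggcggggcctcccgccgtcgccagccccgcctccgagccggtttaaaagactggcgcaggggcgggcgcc
SOCS3 (chr17:78360926-78361175): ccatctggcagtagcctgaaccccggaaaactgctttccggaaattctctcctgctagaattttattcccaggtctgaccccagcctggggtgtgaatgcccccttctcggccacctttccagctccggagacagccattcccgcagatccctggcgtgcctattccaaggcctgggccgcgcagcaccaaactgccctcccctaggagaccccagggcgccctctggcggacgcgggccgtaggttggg
The SOCS1 window held 1 such core, starting 113 bases before the RefSeq start, and the SOCS3 window held none. This core occurs in 3.07% of 27305 promoter windows of the same length. The STAT element TTCNNNGAA, which reads the same on both strands and whose outer letters can share bases with the other motif, was in neither window and in 6.78% of all windows. The RefSeq start used for SOCS3 lies 848 bases upstream of the GENCODE 29 start, so the bases next to the latter were not read.

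Parental libraries held 19785922 to 23191698 gene counts and knockout libraries 20662882 to 21981123. The targeted gene SMARCA4 was at 198 to 235 CPM (the usual unit of counts normalised to the scaled library size) in parental tumours and 22.3 to 31.1 CPM in knockout tumours, so every library lay on the side of its label. Its log2 fold change was -3.02 (standard error 0.117, edgeR adjusted p = 1.45e-07). Epithelial markers were abundant and summed to 7506 to 8815 CPM in parental and 6600.4 to 7973 CPM in knockout tumours. EPCAM was at 433 to 564 CPM over both groups. Of 8 such markers tested, 2 were lower and 0 higher at an edgeR adjusted p under 0.05. That is 25.0%, beside 27.0% of all tested genes. The lung lineage factor NKX2-1 was at 0 counts in each of the 8 libraries, a result that allows at most 0.0176 CPM, and SFTPB stayed at or under 0.374 CPM. Markers of leukocytes and macrophages summed to 15.5, 87.4, 73.6 and 9.18 CPM in parental replicates 1 to 4, and to 15.3 to 37.1 CPM in knockout tumours. Of the 16 markers in that list 10 passed the filter and none was at 0 in every library. Whether mouse reads were separated from human reads is not given in the sources used here. The species of the cells behind the leukocyte and macrophage marker counts is therefore not known. In bulk RNA, fewer cells of a type and less RNA per cell cannot be told apart.

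Among the 10 genes, IFNGR1 and SOCS3 rose in knockout tumours and no gene fell. The background was 13.0% of tested genes called higher, 14.1% called lower and 27.0% called in either direction by edgeR's quasi-likelihood test at an adjusted p under 0.05. With 2 of 10 genes called, the set stood close to that background. By edgeR 1 gene, IFNAR2, was lower at an unadjusted p under 0.05, and DESeq2 and limma-voom also called 0 genes lower. The median log2 fold change of the 10 genes was 0.13, beside 0.00 over all tested genes. The groups did not overlap for the same 2 genes, IFNGR1 and SOCS3, against 14.0% of tested genes with all knockout values higher.

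**Figure D1:**
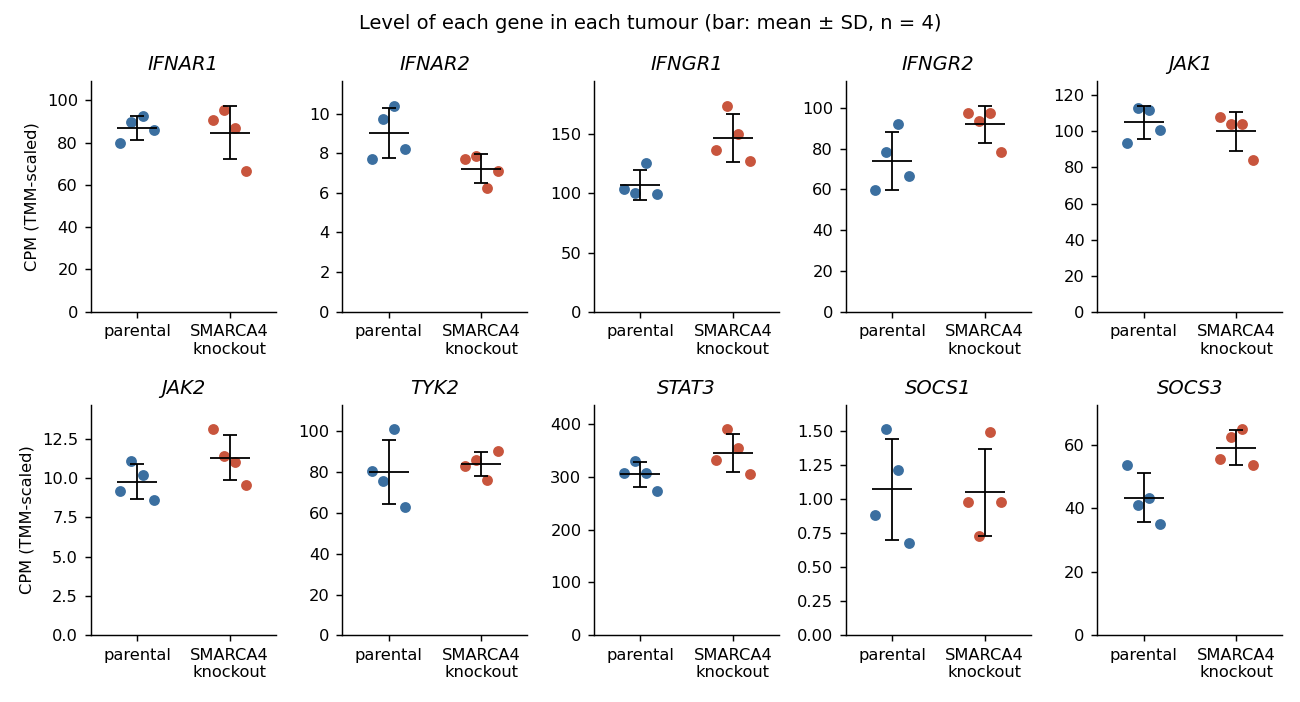
CPM of each of the 10 genes (vertical axes, from 0) in the 4 parental and 4 SMARCA4 knockout tumours; points are tumours and bars are the mean and SD. The groups are apart for IFNGR1 (highest parental tumour 126 CPM, lowest knockout tumour 127 CPM) and only just for SOCS3, and they overlap for the other genes.

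Of the receptor chains of interferon gamma, the ligand-binding chain IFNGR1 rose and IFNGR2 did not pass the test. IFNGR1 (ENSG00000027697, chromosome 6, 137197484 to 137219449, minus strand, GENCODE 29 on GRCh38) was at 104, 99.9, 126 and 99.2 CPM in parental replicates 1 to 4 and at 137, 174, 150.3 and 127 CPM in knockout replicates 1 to 4. Every knockout tumour lay above every parental tumour, although the closest pair differed little. IFNGR1 rose from 107 ± 12.8 to 147 ± 20.4 CPM (SD over 4 tumours each), equal to 1.37-fold or 0.45 on the log2 scale (standard error 0.116, edgeR adjusted p = 0.0136). The call held in all 17 alternative analyses, in which the log2 fold change ran from 0.36 to 0.54 and the highest adjusted p was 0.0458.

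IFNGR2, the chain that brings JAK2 into the interferon gamma receptor (ENSG00000159128, chromosome 21, 33402896 to 33479348, plus strand), was at 59.6, 78.4, 91.8 and 66.4 CPM in parental tumours and at 97.6, 93.7, 97.5 and 78.3 CPM in knockout tumours. The groups overlapped because parental replicates 2 and 3 lay within the knockout range. The log2 fold change was 0.31 (95% interval 0.02 to 0.60, edgeR adjusted p = 0.111). Without parental replicate 3 it was 0.43 and the gene was called (adjusted p = 0.0257), and without parental replicates 2 and 3 together it was 0.53 (adjusted p = 0.00797). As those were the highest parental tumours for this gene, a larger difference without them was built in. Exons of TMEM50B on the opposite strand cover 12.8% of the IFNGR2 exon bases, and reads there cannot be told apart if counting ignored strand.

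The chains of the type I interferon receptor did not pass the test. IFNAR1 (ENSG00000142166, chromosome 21, 33324477 to 33359862, plus strand) was at 79.7, 89.9, 92.5 and 86.0 CPM in parental tumours and at 90.6, 95.5, 86.8 and 66.5 CPM in knockout tumours. Knockout replicate 4 was the lowest of all 8, and the other knockout values lay inside or just above the parental range. The log2 fold change was -0.04 (95% interval -0.28 to 0.21, edgeR adjusted p = 0.843), which bounds a change to between 0.821-fold and 1.16-fold.

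IFNAR2, the chain that binds type I interferons most tightly (ENSG00000159110, chromosome 21, 33229901 to 33265675, plus strand), was at 7.72, 9.72, 10.4 and 8.21 CPM in parental tumours and at 7.71, 7.85, 6.25 and 7.10 CPM in knockout tumours. The 2 highest values were parental replicates 2 and 3, and the groups overlapped only between 7.72 and 7.85 CPM. The log2 fold change was -0.32 (95% interval -0.63 to -0.01, edgeR adjusted p = 0.124). Other annotated genes share most of its exons. AP000295.1 covers 44.2% of IFNAR2 exon bases on the same strand and had 0 counts in all libraries, and IL10RB-DT covers a further 39.1% on the opposite strand. Counting that sets aside reads shared by 2 genes would leave out those stretches.

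**Figure D2:**
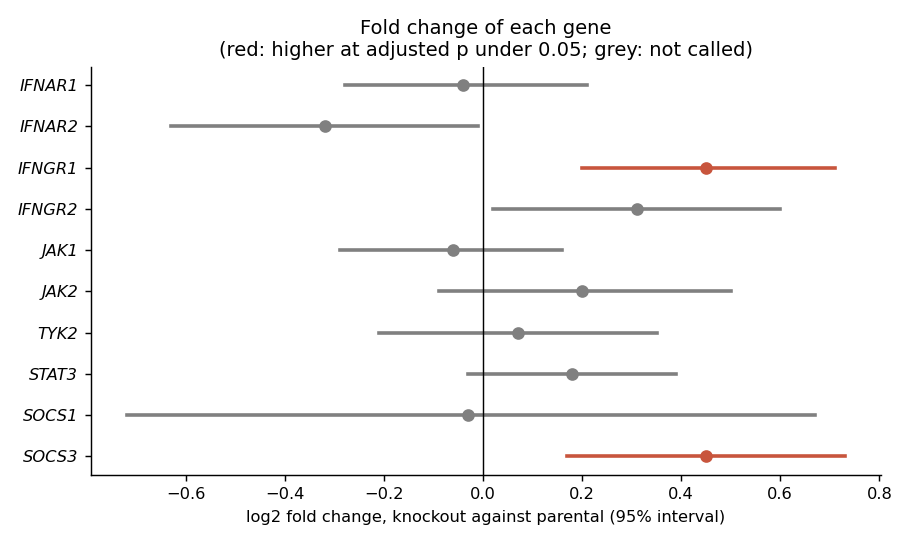
Log2 fold change of each of the 10 genes, knockout against parental (points), with 95% intervals from the edgeR fit (lines). IFNGR1 and SOCS3, in red, are each at 0.45 with intervals above 0, while the interval of SOCS1 runs from -0.72 to 0.67.

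None of the 3 kinases passed the test, and the tightest bounds were on JAK1. JAK1, used by both receptors (ENSG00000162434, chromosome 1, 64833229 to 64966504, minus strand), was at 93.3, 113, 112 and 101 CPM in parental tumours and at 108, 104, 104 and 84.3 CPM in knockout tumours. Its log2 fold change was -0.06 (95% interval -0.29 to 0.16, edgeR adjusted p = 0.687). The groups overlapped, and knockout replicate 4 was again the lowest tumour.

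JAK2, the partner of IFNGR2 (ENSG00000096968, chromosome 9, 4984390 to 5128183, plus strand), was at 9.17, 11.1, 10.2 and 8.63 CPM in parental tumours and at 13.1, 11.4, 11.0 and 9.57 CPM in knockout tumours. The log2 fold change was 0.20 (95% interval -0.09 to 0.50, edgeR adjusted p = 0.294), and the ranges overlapped. TYK2, the partner of IFNAR1 (ENSG00000105397, chromosome 19, 10350529 to 10380676, minus strand), was at 80.7, 75.8, 101 and 63.1 CPM in parental tumours and at 83.1, 86.0, 76.4 and 90.6 CPM in knockout tumours. All knockout values of TYK2 fell inside the parental range, with a log2 fold change of 0.07 (95% interval -0.21 to 0.35, edgeR adjusted p = 0.729).

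STAT3 (ENSG00000168610, chromosome 17, 42313324 to 42388568, minus strand) was the most counted of the 10 genes. It was at 306, 330, 307 and 273 CPM in parental tumours and at 332, 389, 354 and 304 CPM in knockout tumours. Only the lowest knockout tumour, replicate 4, lay inside the parental range. The log2 fold change of 0.18 did not pass the test (95% interval -0.03 to 0.39, edgeR adjusted p = 0.199).

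Of the inhibitors, SOCS3 rose, while SOCS1 had few counts and its interval did not bound a change closely. SOCS3, whose product binds JAK kinases and interleukin-6 type receptors (ENSG00000184557, chromosome 17, 78356778 to 78360077, minus strand), was at 53.6, 41.1, 43.2 and 35.1 CPM in parental tumours and at 55.4, 62.5, 64.8 and 53.6 CPM in knockout tumours. Parental replicate 1 and knockout replicate 4 met at 53.6 CPM to the digits given, and all other knockout tumours were higher than all parental ones. SOCS3 rose from 43.3 ± 7.70 to 59.1 ± 5.43 CPM (SD over 4 tumours each), equal to 1.37-fold or 0.45 on the log2 scale (standard error 0.126, edgeR adjusted p = 0.0207). The call was lost without knockout replicate 2 (0.42, adjusted p = 0.0589), without knockout replicate 3 (0.40, adjusted p = 0.0650) and without parental replicates 2 and 3 together (0.41, adjusted p = 0.0791).

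SOCS1, which inhibits JAK kinases directly (ENSG00000185338, chromosome 16, 11254405 to 11256200, minus strand), had 17, 31, 27 and 16 counts in parental and 21, 15, 32 and 21 counts in knockout tumours. That is 1.07 ± 0.367 CPM and 1.05 ± 0.320 CPM (SD over 4 tumours each). Parental replicate 2 and knockout replicate 3 were about level at the top. The 95% interval of the SOCS1 fold change ran from 0.605 to 1.59 (edgeR adjusted p = 0.964), so a change of the size of that of SOCS3 was not excluded.

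Levels of different genes were set side by side as CPM per kilobase of merged exons. In parental tumours the order by mean was STAT3 (34.5), IFNGR1 (32.7), IFNGR2 (25.0), JAK1 (16.6), SOCS3 (15.8), IFNAR1 (13.8), TYK2 (11.8), IFNAR2 (1.95), JAK2 (1.58) and SOCS1 (0.596 CPM per kilobase). Neighbours in that order overlapped over the 4 parental tumours, except between IFNGR2 and JAK1, between TYK2 and IFNAR2, and between JAK2 and SOCS1. In knockout tumours IFNGR1 led with 44.9 ± 6.22 CPM per kilobase and STAT3 followed with 39.1 ± 4.05 (SD over 4 tumours each). That order turned with the length used: per kilobase of the longest transcript STAT3 was above IFNGR1 in both groups, with means of 60.2 and 42.6 CPM in parental tumours and 68.3 and 58.4 CPM in knockout tumours. SOCS3 stood at 21.6 ± 1.99 CPM per kilobase in knockout tumours, above JAK1 in 4 of 4, with ranges that did not overlap. Per kilobase of the longest transcript those ranges did overlap (SOCS3 19.6 to 23.7, JAK1 16.7 to 21.4 CPM). In knockout replicate 1 JAK1 was then the higher (21.4 against 20.3 CPM). IFNAR2 was eighth in parental tumours by every length tried, but its level moved. Over the exon bases that no other gene overlaps, a choice made after the data were seen, it was at 11.7 CPM per kilobase in parental tumours, close to the 11.8 of TYK2. That length of 773 bases applies only if counting ignored strand, which is not known. With counting by strand 2576 bases would be free, which would give a lower level that was not computed.

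**Figure D3:**
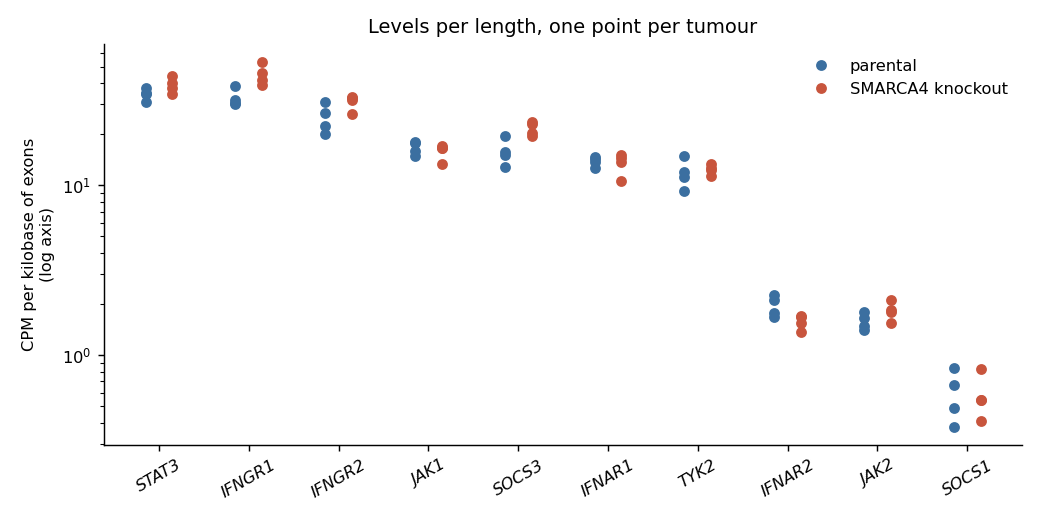
CPM per kilobase of merged exons on a log axis for the 10 genes, ordered by the parental mean; points are tumours, blue parental and red SMARCA4 knockout. IFNAR2, JAK2 and SOCS1 lie below 3 CPM per kilobase in every tumour, and the other 7 genes lie between 9.31 and 53.1.

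Ratios between partners were compared within each tumour, which cancels the library scaling. Of 5 ratios, only that of JAK1 to JAK2 separated the groups. It was 9.94, 9.90, 10.7 and 11.5 in parental tumours and 8.07, 8.92, 9.25 and 8.60 in knockout tumours, a mean log2 difference of -0.27 (exact two-sided permutation p = 0.0286, the smallest that 4 against 4 allow, and 0.143 after Benjamini-Hochberg adjustment over the 5 ratios). The ratio of IFNGR1 to IFNGR2 ran from 1.15 to 1.58 in parental and 1.26 to 1.68 in knockout tumours (difference 0.13 on the log2 scale, exact permutation p = 0.371, adjusted 0.429). IFNGR1 was the more abundant chain in all 8 tumours. That of IFNAR1 to IFNAR2 differed by 0.27 on the log2 scale (exact permutation p = 0.0857, adjusted 0.214), that of SOCS3 to SOCS1 by 0.48 (0.229, adjusted 0.382) and that of JAK1 to TYK2 by -0.15 (0.429, adjusted 0.429). None of the 5 passed after adjustment, which would need at least 3 ratios at the smallest p.

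The profile of IFNGR1, the gene with the smallest p of the 10, was compared with those of 13053 genes whose mean log2 CPM was 1 or more. The most alike over the 8 tumours was CDH3, the gene of a cell adhesion protein, with a root mean square difference of 0.0552 in centred log2 CPM. ETFBKMT (0.0855) and ZNF558 (0.102) came next, against a median of 0.346 over all genes compared. CDH3 was at 8.59 to 11.6 CPM in the parental group and 11.2 to 16.9 CPM in the knockout group.

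The ligands of these receptors were almost absent from the human counts. Of 21 interferon genes, 14 were without a count in any library, including IFNB1, and the limit for each is 0.0176 CPM. Interferon gamma (IFNG) had 4 counts over the parental and 5 over the knockout libraries. Only IFNE, an epithelial type I interferon, was tested, at 2.90 ± 0.882 CPM in the parental group and 3.11 ± 1.63 CPM in the knockout group (SD over 4 tumours each; log2 fold change 0.10, edgeR adjusted p = 0.860). These 3 interferons were named after their values were seen.

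Among receptors of other cytokines that signal through JAK kinases, more genes rose than fell. Of 26 listed, 20 were tested, 8 rose and 2 fell (50.0% called, beside 27.0% of all tested genes). The median log2 fold change was 0.44, beside 0.00 over all tested genes. This list and those that follow were chosen with earlier results of these data known. With no filter on low counts all 26 were tested, 7 rose and 3 fell, and the median was 0.24. IL20RB, a chain of the interleukin-20 type receptors, rose from 3.87 ± 0.788 to 20.2 ± 2.62 CPM (SD over 4 tumours each; log2 fold change 2.38, standard error 0.168, edgeR adjusted p = 3.32e-06). IL22RA1, the interleukin-22 receptor chain, rose from 5.28 ± 1.23 to 15.7 ± 1.51 CPM (1.57, standard error 0.170, adjusted p = 5.28e-05). IL6R, the interleukin-6 receptor, rose from 10.3 ± 1.51 to 22.9 ± 2.16 CPM (1.15, standard error 0.126, adjusted p = 5.67e-05). In each of these 3 genes every knockout tumour lay above every parental tumour.

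The receptors that follow were named after their values were seen. IFNLR1, the specific chain of the type III interferon receptor, was at 5.75, 8.10, 4.78 and 4.12 CPM in parental tumours and at 14.0, 11.1, 12.6 and 13.2 CPM in knockout tumours. It rose by 1.16 on the log2 scale (standard error 0.195, edgeR adjusted p = 0.00110), and the call held in every alternative. Its shared partner chain IL10RB was at 0.831 ± 0.189 and 1.16 ± 0.279 CPM (SD over 4 tumours each; 0.48, adjusted p = 0.240), and AP000295.1, which also overlaps IFNAR2, covers 38.1% of its exon bases. IL27RA (1.20), OSMR (0.78), IL4R (0.40) and IL20RA (0.30) were also called higher. Leaving out 1 tumour lost the call of IL4R in 4 of 8 cases (parental replicates 1 and 4, knockout replicates 2 and 3) and that of IL20RA in 4 of 8 (parental replicate 2, knockout replicates 1, 2 and 3). LIFR, a receptor chain for LIF, fell by 0.65 on the log2 scale (standard error 0.162, adjusted p = 0.0116), from 12.0 to 16.7 CPM in parental to 6.96 to 10.5 CPM in knockout tumours. The shared chain IL6ST, which pairs with IL6R, OSMR and LIFR, had a log2 fold change of -0.03 (adjusted p = 0.909).

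IL10RA, a receptor chain of leukocytes, was called lower at -1.94 (edgeR adjusted p = 0.0257). It was at 1.24, 6.10, 4.56 and 1.06 CPM in parental tumours, and at 0.420 to 1.31 CPM in knockout tumours. Parental replicates 2 and 3, the highest, also had the highest sums of leukocyte markers. Without those 2 tumours its log2 fold change was -0.46 (adjusted p = 0.417), and leaving out either of them, or knockout replicate 2, 3 or 4, also lost the call. As they held its highest values, a smaller difference without them was built in.

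Of 16 ligands of these receptors, 8 were tested and 5 rose (62.5% called, beside 27.0% of all tested genes), with a median of 0.66. By edgeR and by DESeq2 on all 8 tumours 0 were called lower, and CSF3 was lower at an unadjusted p under 0.05 by edgeR. CSF3, a granulocyte growth factor gene, had the largest difference of the list, -2.21 on the log2 scale (adjusted p = 0.0809), with 18.8 CPM in parental replicate 3 and 2.44 to 3.27 CPM in the other parental tumours. In knockout tumours it was at 4.58 CPM in replicate 2 and 0.373 to 0.607 CPM in the others. It was called lower without knockout replicate 2 (-3.82, adjusted p = 0.00903), without parental replicate 2 and with no filter on low counts. LIF, an interleukin-6 family cytokine, was at 50.2, 35.9, 84.4 and 43.2 CPM in parental tumours and at 153, 203, 142 and 152 CPM in knockout tumours. It rose by 1.60 on the log2 scale (standard error 0.232, edgeR adjusted p = 0.000406). IL6 rose from 4.67 ± 0.809 to 10.8 ± 0.165 CPM (SD over 4 tumours each; 1.21, standard error 0.145, adjusted p = 0.000114). IL15 rose from 8.44 ± 0.663 to 13.1 ± 0.656 CPM (0.63, standard error 0.111, adjusted p = 0.00151). The other called ligands, CLCF1 (0.36, adjusted p = 0.0213) and IL7 (0.77, adjusted p = 0.0333), like CSF3 were named after their values were seen. IL7 lost its call in 8 of 17 alternatives, among them leaving out parental replicate 3 or 4, or knockout replicate 1, 2 or 3. CLCF1 lost its call in 3 of 17, among them leaving out parental replicate 1 or knockout replicate 1. Without knockout replicate 1 there were 3 called ligands.

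**Figure D4:**
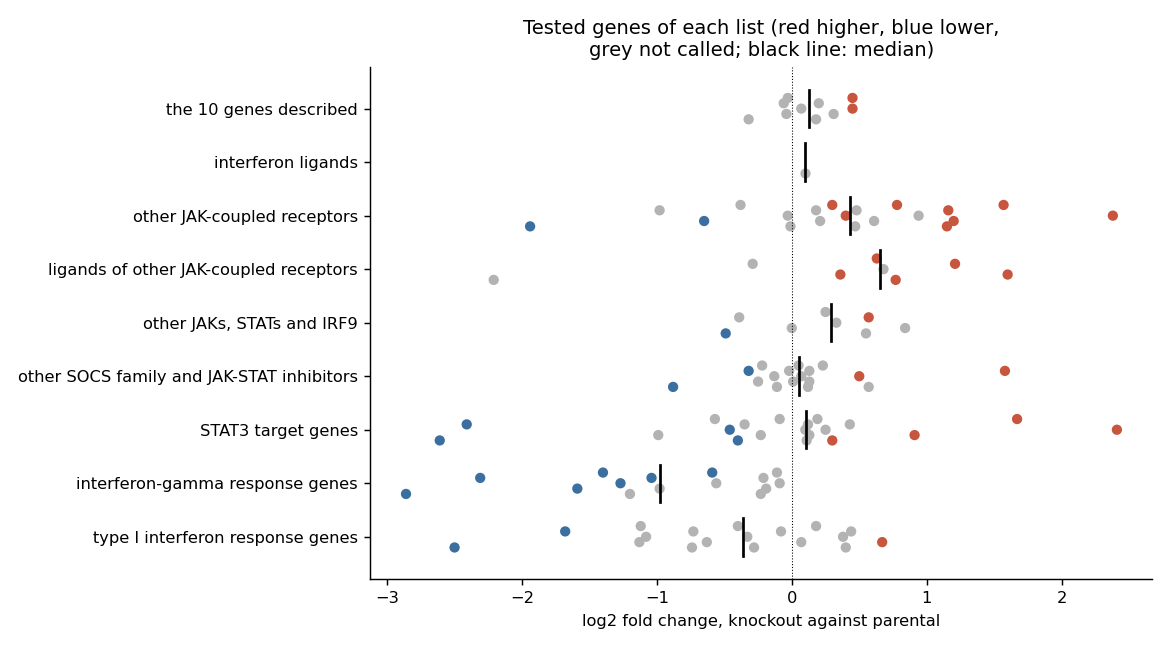
Log2 fold change, knockout against parental, of every tested gene in the 10-gene set and in 8 lists of the wider pathway; points are genes, coloured by call, and black lines are medians. The medians are 0.44 and 0.66 for other receptors and their ligands and -0.98 for interferon gamma response genes, beside 0.13 for the 10 genes.

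Among the other kinases and transcription factors of the pathway, 1 of 8 rose and 1 fell, which at 25.0% called is about the background of 27.0%. Leaving out parental replicate 2 gave 3 higher, and leaving out parental replicate 1 gave 2 lower and 0 higher. STAT6, which serves interleukin-4 receptors, fell from 204 ± 27.7 to 146 ± 17.3 CPM (SD over 4 tumours each; log2 fold change -0.49, standard error 0.119, edgeR adjusted p = 0.0107). Without parental replicates 2 and 3 it was -0.39 and no longer called (adjusted p = 0.0558). STAT5A was called higher at 0.57 (adjusted p = 0.0400), and leaving out parental replicate 1 or 4, or knockout replicate 1, 2 or 3, lost that call. Leaving out parental replicates 2 and 3 gave 5 genes higher and 0 lower, with 1 lower at an unadjusted p under 0.05 by edgeR.

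IRF9, the DNA-binding partner of the STAT proteins in type I interferon signalling, was at 4.21 ± 1.36 and 5.28 ± 0.590 CPM (SD over 4 tumours each; log2 fold change 0.33, edgeR adjusted p = 0.315). Without parental replicates 2 and 3 the log2 fold change was 0.68 (adjusted p = 0.0409). As those held the highest parental values of the gene, a larger difference without them was built in. The gene AL136295.5 covers 48.4% of IRF9 exon bases on the same strand, which makes its count uncertain.

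Among 17 other inhibitors of the pathway, all tested, 2 rose and 2 fell, which at 23.5% called is no more than the background of 27.0%. SOCS2, a feedback inhibitor of STAT5 signalling, was at 1.65 to 2.51 CPM in parental tumours and at 6.96, 4.68, 7.19 and 6.26 CPM in knockout tumours, a rise of 1.58 on the log2 scale (standard error 0.198, edgeR adjusted p = 0.000154). SOCS6 rose by 0.50 (standard error 0.0978, adjusted p = 0.00288). PIAS3, an inhibitor of STAT3, fell from 136 ± 16.2 to 73.5 ± 5.48 CPM (SD over 4 tumours each; -0.88, standard error 0.0999, adjusted p = 7.39e-05). PIAS4 (-0.32, adjusted p = 0.0269), named after its values were seen, lost its call in 6 of 17 alternatives, among them leaving out parental replicate 1 or any 1 knockout tumour. SOCS4, SOCS5, SOCS7, CISH and the phosphatases PTPN1, PTPN2, PTPN6 and PTPN11 were looked up after the calls were seen, and none was called. Thus 3 of the 8 SOCS family genes tested rose, SOCS2, SOCS3 and SOCS6, and the background for such calls was the 13.0% given above.

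Genes known as STAT3 targets in liver and epithelium did not move in 1 direction. Of 22 listed, 20 were tested, 4 rose and 4 fell (40.0% called, beside 27.0% of all tested genes), with a median of 0.10. The fibrinogen chain genes FGA and FGB rose by 2.41 (standard error 0.168, edgeR adjusted p = 2.98e-06) and 0.91 (standard error 0.218, adjusted p = 0.00947), and LBP, an acute-phase protein gene, by 1.67 (standard error 0.317, adjusted p = 0.00242). FGA was at 57.4 to 89.1 CPM in the parental group and 322 to 519 CPM in the knockout group. PIM1 was the other call upward (0.30, adjusted p = 0.0473) and was lost in 14 of 17 alternatives. The falls were SAA1 (-2.61), SAA2 (-2.41), CEBPD (-0.46) and PIM3 (-0.40), named with PIM1 after their values were seen. SAA1 and SAA2 are near-identical genes whose counts can be split. SAA1 was at 32.2 CPM in parental replicate 3 and 4.97 to 9.53 CPM in the other parental tumours, and at 5.66 CPM in knockout replicate 2 and 0.794 to 1.78 CPM in the other knockout tumours. Leaving out 1 tumour gave log2 fold changes of -3.54 to -1.79 for SAA1 and -3.19 to -1.60 for SAA2. The call of CEBPD was lost in 8 of 17 alternatives, that of SAA2 in 5 and those of SAA1 and PIM3 in 1 each. Without knockout replicate 1 only 1 fall was called, and without parental replicate 3, knockout replicate 3, knockout replicate 4, or parental replicates 2 and 3 together there were 2.

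Genes that respond to interferon gamma were lower or not called, and the differences were smaller without parental replicates 2 and 3. Those tumours had the highest sums of this list, so a smaller difference without them was built in. Of 19 listed, 15 were tested, 7 fell (46.7% called, beside 27.0% of all tested genes) and 0 rose by edgeR. By edgeR 0 were higher at an unadjusted p under 0.05, and by DESeq2 0 were called higher. The median was -0.98. GBP4, a guanylate-binding protein gene, was at 1.76, 9.91, 13.3 and 3.83 CPM in parental tumours and at 0.934, 0.390, 1.31 and 1.31 CPM in knockout tumours (log2 fold change -2.86, standard error 0.585, edgeR adjusted p = 0.00384). PSMB8, an immunoproteasome subunit gene, fell by 1.27 (standard error 0.271, adjusted p = 0.00484) and GBP2 fell by 0.59 (standard error 0.131, adjusted p = 0.00662). The summed level of the list was 348, 531, 551 and 354 CPM in parental and 301, 304, 335 and 324 CPM in knockout tumours. Leukocyte and macrophage markers were highest in the same 2 parental tumours, as given above, and their part in the result was not tested. Leaving out parental replicate 2 or 3, or knockout replicate 1, 2 or 3, gave 5 genes lower. Leaving out parental replicate 1 or 4 gave 8, and leaving out knockout replicate 4 gave 6. Without parental replicates 2 and 3 together the list had a median of -0.08, with 4 genes lower and 1 higher. GBP4 (-1.52, adjusted p = 0.0224), PSMB8 (-0.80, adjusted p = 0.0310) and GBP2 (-0.36, adjusted p = 0.0382) kept their calls.

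**Figure D5:**
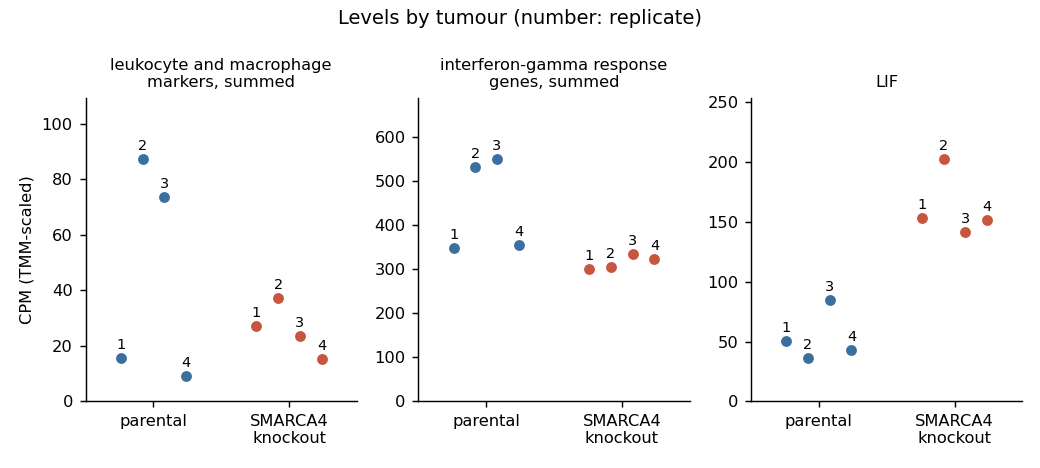
CPM by tumour (points, numbered by replicate; vertical axes from 0) of leukocyte and macrophage markers summed, interferon gamma response genes summed, and LIF. Parental replicates 2 and 3 are the highest tumours in both summed lists (87.4 and 73.6, 531 and 551 CPM), while LIF is higher in all 4 knockout tumours.

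Of the 18 type I interferon response genes measured, all were tested, 1 rose and 2 fell, with a median of -0.37. The 16.7% called lies under the background of 27.0%. IFI44L fell by 2.50 on the log2 scale (standard error 0.516, edgeR adjusted p = 0.00410) and MX2 fell by 1.68 (standard error 0.336, adjusted p = 0.00335). DDX58, which encodes the RNA sensor RIG-I, rose by 0.67 (standard error 0.109, adjusted p = 0.000916). Without parental replicates 2 and 3 all 3 kept their calls, with IFI44L at -1.66 (adjusted p = 0.0238), MX2 at -1.05 (adjusted p = 0.0172) and DDX58 at 0.77 (adjusted p = 0.00151). The median of the list was then 0.30, with 3 genes higher and 2 lower. Those parental tumours had the highest parental sums of this list too, so an upward shift was favoured from the start. Leaving out parental replicate 1, parental replicate 4 or knockout replicate 3 gave 4, 4 and 5 genes lower.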

How the data were processed

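The deposited files hold raw read counts per gene symbol, 1 file per tumour and not pooled, as the authors made them. TopHat2 2.1.1, HTSeq 0.11.0 and hg38 are named in the submitters' processing notes. The annotation, strandedness and counting options are not given in the sources used here. The 5 summary lines (ambiguous reads 3.98% to 4.31%) were left out, and every pair of libraries differed by more than sampling noise.

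Knockout was compared with parental in edgeR 4.0.16 (R 4.3.3) over all 8 tumours: filterByExpr (minimum count 10, minimum total 15), TMM scaling, quasi-likelihood F-test, no covariate, Benjamini-Hochberg adjustment over 16219 genes. SE was derived from the F statistic. CPM uses TMM-scaled library sizes. Single ratios were compared by exact permutation in SciPy 1.17.1. Alternatives were DESeq2 1.42.0, limma-voom (limma 3.58.1), 3 scalings, 2 filters, a replicate block, leaving out tumours, and other exon lengths. Besides single tumours, only parental replicates 2 and 3 were left out together, and no other pair was tried. On simulated counts, with 100 genes changed at each fold, the test called 44% of 1.5-fold and 89% of 2-fold changes (16012 genes). The changed genes all had a mean log2 CPM above 1, unlike SOCS1 (0.2). In the data 4385 genes were called, far more than were changed there, so these shares are not the power of the tests reported here. Positions are from GENCODE 29, which held 98% of tested symbols once. A limit of 3 counts was used where 0 were seen; such limits cover counting error only.

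The genes and lists were chosen with earlier results of these data known. The text names all 10 genes, SMARCA4, IRF9, the 3 called genes with the smallest p in each list and the 3 genes most like IFNGR1; others are said to be named after their values were seen. Lists of fibroblast (183 to 613 CPM summed), endothelial (7.92 to 18.8), skeletal muscle (0.420 to 35.1), adipocyte (0.298 to 1.27) and erythroid (0 to 0.187) markers were also measured. The skeletal muscle sum was 35.1 CPM in parental replicate 2 and 16.5 CPM in knockout replicate 4, and at most 7.44 CPM in the other tumours.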

Additional observations from a re-analysis of the deposited data

Results flagged for a closer look

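Among 76 sets of 4 values, each 1 gene or 1 of the 5 ratios in 1 genotype, 4 held an extreme tumour far from its neighbours, and chance gives about 5%. JAK1 was at 84.3 CPM in knockout replicate 4, against 104 to 108 CPM in the other knockout tumours. IL15 was at 9.42 CPM in parental replicate 3, against 7.98 to 8.21 CPM in the other parental tumours. PIAS3 was at 159.8 CPM in parental replicate 3, against 125 to 131 CPM. IFI44L was at 2.38 CPM in knockout replicate 3, against 0.560 to 0.841 CPM in the other knockout tumours.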

How the results depend on the processing

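IFNGR1 was called higher in all 17 alternatives, and SOCS3 in 14 of 17. Among the 10 genes, 1 to 3 were called with any 1 tumour left out (1 without knockout replicate 2 or 3, and 3 without parental replicate 3, when IFNGR2 was added), and none was called lower in any alternative. Fits on all 8 tumours by another tool, scaling or filter gave 2. Signs turned only for genes that were never called. With parental replicates 2 and 3 left out, log2 fold changes became 0.03 for IFNAR1, 0.03 for JAK1 and 0.42 for SOCS1, and upper-quartile scaling gave 0.01 for SOCS1. Leaving out 1 tumour gave -0.10 to 0.07 for IFNAR1, -0.12 to 0.01 for JAK1, -0.04 to 0.20 for TYK2 and -0.25 to 0.18 for SOCS1. The cause was not tested. By upper-quartile scaling 54.1% of all calls were higher, against 47.9%. With a replicate block 2 of the 10 genes were called, and 3871 of all genes against 4385. Samples sharing a replicate number did not deviate together (residual correlations -0.283 to 0.121), so no pairing by number was seen in the counts. Whether tumours were handled in pairs is not given in the labels. With no filter on low counts 11 interferon gamma response genes and 6 type I response genes were called lower, against 7 and 2, and with the block 3 of the other ligands were called, against 5. Limma-voom called 5 interferon gamma response genes lower, and DESeq2 called 9 of the 19 it tested. Limma-voom also called 1 of the other receptors lower, against 2. The order of mean levels per length over all 8 tumours kept 40 of 45 gene pairs with the longest transcript and all 45 with exon bases free of other genes. Depth limits SOCS1 and the interferon ligands, as given beside them.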

Other observations

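Genes around the receptor genes were read from the same fit. IFNAR2, IL10RB, IFNAR1 and IFNGR2 lie side by side on chromosome 21 (33229901 to 33479348, GENCODE 29 on GRCh38). Of 23 other tested genes within 1 Mb of that span, IL10RB included, 4 were called higher and 1 lower, beside a background of 13.0% and 14.1%, and their median log2 fold change was 0.19. TYK2 lies 580.1 kb from the targeted gene SMARCA4 on chromosome 19. Of 51 other tested genes within 1 Mb of TYK2, 7 were called higher and 7 lower, with a median of -0.02.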
